A study of Mus musculus with 28 samples.

Results

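A set of 9 fetal RNA-binding and heterochronic genes was followed through development of the mouse dorsal lateral geniculate nucleus (dLGN), the part of the thalamus through which signals from the retina reach visual cortex. The genes are Igf2bp1, Igf2bp2, Igf2bp3, Lin28b, Trim71, Mex3a, Mex3b, Hmga1 and Hmga2, 9 of the 26581 genes listed in the deposited tables. They were taken by symbol and were chosen by their read counts over the 7 ages, in which most of them were known to be higher early. Their levels and calls between ages are therefore given as a description, with no test. Wild-type C57BL/6J mice in standard housing contributed 4 libraries at each of the 7 ages. These were E18 (embryonic day 18) and the postnatal days P4, P10, P16, P20, P27 and P32. Both sexes were used over the series, in a mix that differed between ages. RNA was extracted from nuclei dissected out of brain slices and freed of ribosomal RNA before sequencing, and the design compares adjacent ages. A library is called by its age and its column's number, 3 to 6.

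Heterochronic genes set the timing of developmental steps. The best known circuit was worked out in the worm Caenorhabditis elegans, where lin-28 and lin-41, the relatives of Lin28b and Trim71, act early and the microRNA let-7 shuts the early programme down later. In mammals LIN28 proteins bind the GGAG motif in the loop of the let-7 precursor and block its processing, while mature let-7 represses Lin28b, Trim71, Hmga2 and the Igf2bp genes through their 3′ untranslated regions (3′ UTRs). IGF2BP proteins bind mRNAs in fetal tissues and control their transport, stability and translation, and HMGA proteins are chromatin factors that bind AT-rich DNA in the minor groove.

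The let-7 sequences are given here as background to the search for matches below. All 9 mature let-7 family members in the RefSeq table (GRCm38.p6) carry 1 and the same seed, bases 2 to 8, printed here in capitals.
let-7a: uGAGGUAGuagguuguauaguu
let-7b: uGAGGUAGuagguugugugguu
let-7d: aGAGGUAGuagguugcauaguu
let-7g: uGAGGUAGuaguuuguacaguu
let-7i: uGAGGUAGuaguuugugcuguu
miR-98: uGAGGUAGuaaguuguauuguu
The members differ outside the seed, and let-7d also in its first base. Of the 12 hairpins of the family, 9 hold GGAG between their arms and 3 (Mirlet7b, Mirlet7c-2 and Mir98) do not. The stretch between the arms is shown for 3 hairpins with the motif in capitals and for 1 without it.
Mirlet7a-2, chr9:41536716-41536811, plus strand: uagaguuacaucaagGGAGauaa
Mirlet7c-1, chr16:77599657-77599750, plus strand: uagaguuacacccugGGAGuuaa
Mirlet7e, chr17:17830352-17830444, plus strand: gaggaagacacccgaGGAGauca
Mirlet7c-2, chr15:85706603-85706697, plus strand: uugggcucugccccgcucugcgguaa
The coordinates are those of the whole hairpin. Mature microRNAs were not measured in these libraries, so their levels are not analysed here.

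The longest annotated 3′ UTR of each gene (GENCODE release M21, GRCm38) was searched on the transcript strand for CTACCTCA, the 8-base match to the let-7 seed followed by an A. Of the 9 genes, 6 held at least 1 match, while 3.06% of the 21020 protein-coding genes with a 3′ UTR did. These 6 are the genes named above as repressed by let-7, so nothing is read from the difference. Igf2bp1 held 3 matches and Trim71 held 4, and 0.0333% of all genes held 3 or more. Igf2bp2, Igf2bp3, Lin28b and Hmga2 held 1 each, and Mex3a, Mex3b and Hmga1 held none. The UTRs of Igf2bp1 (6337 bases), Trim71 (5512 bases), Lin28b (4445 bases) and Mex3a (4215 bases) are long beside a median of 961 bases over all genes, and longer UTRs have more room for a match. A match is a stretch of letters and does not show that let-7 acts on it. The sites are printed with up to 11 bases on either side and the match in capitals, all on the minus strand and in the last exon, with the coordinates of the 8 bases.
Igf2bp1, chr11:95961778-95961785: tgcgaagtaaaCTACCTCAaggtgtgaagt
Igf2bp1, chr11:95959357-95959364: agtgctattaaCTACCTCAgccccagaggg
Igf2bp1, chr11:95958763-95958770: aaatggatgaaCTACCTCAgtcctcacagt
Igf2bp2, chr16:22059473-22059480: acaaataaaagCTACCTCAggtgtttttta
Igf2bp3, chr6:49086787-49086794: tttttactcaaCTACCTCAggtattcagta
Lin28b, chr10:45381022-45381029: gggcgggaagtCTACCTCAtgcaagcacag
Hmga2, chr10:120364224-120364231: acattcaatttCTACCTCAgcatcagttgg
Trim71, chr9:114512472-114512479: ttgcctaagtcCTACCTCAgcttaaatttt
Trim71, chr9:114512376-114512383: ataatttctatCTACCTCAactctttgcat
The other 2 Trim71 sites lie beyond the end of the gene model behind the deposited counts. The 8-base match of miR-125, CTCAGGGA, occurs in Lin28b and in Trim71, once each, against 4.59% of all genes.

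**Figure D1:**
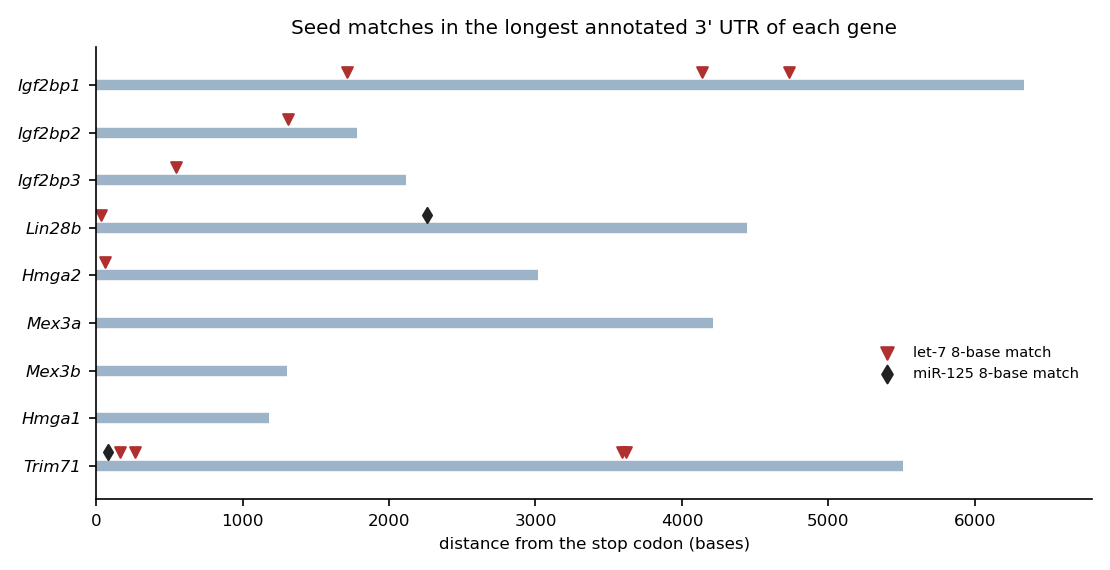
Longest annotated 3′ UTR of each of the 9 genes, drawn as a bar from the stop codon (x axis, bases), with triangles at the 8-base let-7 matches and diamonds at the 8-base miR-125 matches. Trim71 has 4 let-7 matches and Igf2bp1 has 3, while Mex3a, Mex3b and Hmga1 have none.

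Depth per library was between 8224851 and 40206549 reads, with 16938 to 24149 genes seen. P27 library 6 had the fewest genes and the highest share of mitochondrial reads, 21.8% in a range that began at 1.37%, so the P27 means printed are given with and without it. The summed level of 8 thalamic neuron markers was 748 to 3045 CPM (counts relative to library size, scaled by TMM factors over all 28 libraries), against 14.9 to 78.8 CPM for 6 cortical and hippocampal markers. The thalamic sum averaged 2762 CPM at E18 and 1498 CPM at P32, where libraries ran from 748 to 2062 CPM. Meninges markers summed to 94.3 to 253 CPM at E18, 262 to 1135 CPM at P10 and 97.0 to 225 CPM at P32. The part of these differences in the levels below was not tested. Choroid plexus markers summed to 14.3 to 45.5 CPM at the ages after E18, against 162 to 1011 CPM at E18. Those of red blood cells summed to 41.8 to 192 CPM after E18, against 217 to 678 CPM at E18, and their part in the E18 levels below was not tested. Most of the choroid plexus sum at E18, a mean of 435 CPM, came from Ttr at 385 CPM. Of these 6 choroid plexus markers, 5 were lower at P32 than at E18, while Kl averaged 4.33 CPM against 1.77 CPM. The labels speak of 4 mice per age as independent samples. Reads from Xist and from the Y chromosome occurred together in each of the 4 E18 libraries and in P27 library 5, so n counts libraries here.

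Levels were ordered per kilobase of gene model. At P32 the order was Mex3b at 6.34, Hmga1 at 4.74, Lin28b at 2.87, Igf2bp3 at 2.75, Mex3a at 0.566, Igf2bp2 at 0.295, Trim71 at 0.0864 and Igf2bp1 at 0.0254 CPM per kilobase, with Hmga2 at 0. Lin28b and Igf2bp3, Trim71 and Igf2bp1, and Igf2bp1 and Hmga2 were neighbours that lay within an SD of each other there. At E18, Mex3a and Mex3b, of a family of KH-domain RNA-binding proteins related to C. elegans MEX-3, a translational repressor, had the most RNA of the 9 genes. On the same scale Mex3b stood at 39.7 ± 6.98 CPM and Mex3a at 35.4 ± 4.05 CPM (SD, n = 4), which differed by less than the spread between libraries. Next came Hmga1 at 5.92, Igf2bp3 at 4.64 and Lin28b at 4.40 CPM per kilobase, again within the spread of neighbours. Igf2bp1 at 2.33 and Igf2bp2 at 2.29 CPM per kilobase followed, and Hmga2 (0.262) and Trim71 (0.0793) were far lower. In bulk tissue, fewer cells of a type and less RNA per cell cannot be told apart.

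**Figure D2:**
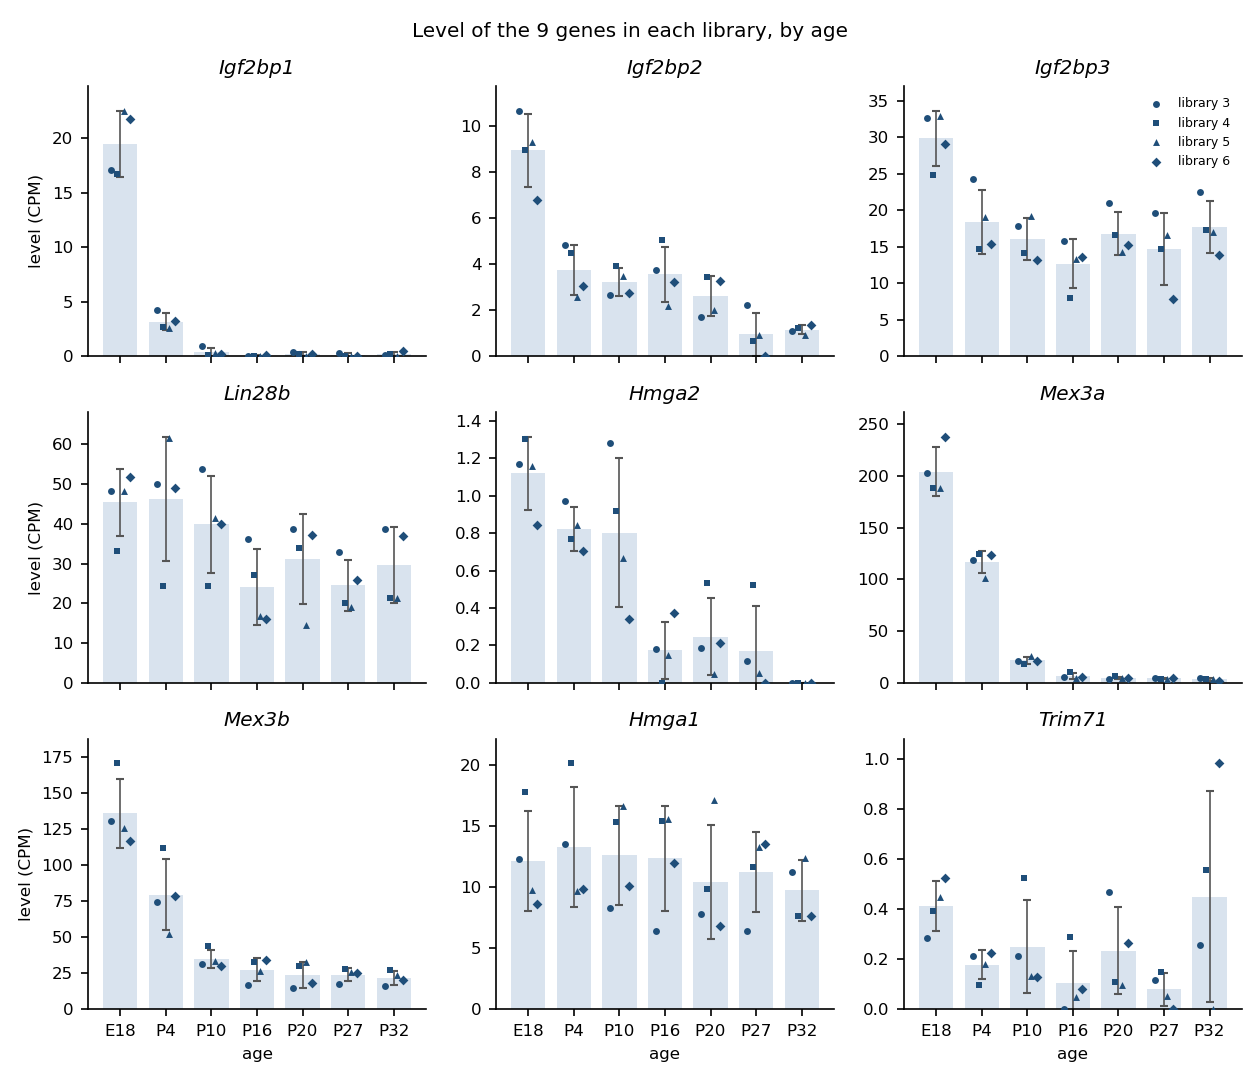
Level (CPM, y axis from 0, scale differing between panels) of each gene in each of the 28 libraries by age (x axis). Bars are means, error bars SD over 4 libraries, and marker shapes the library number. Igf2bp1 stays at or under 0.517 CPM and Mex3a at or under 10.2 CPM from P16 on, while the Hmga1 libraries overlap at all 7 ages.

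Igf2bp1 (gene ID 140486, chr11:95957163-96005944, minus strand) encodes the zipcode-binding protein that carries β-actin mRNA to growth cones. Its E18 libraries held 17.1, 16.7, 22.5 and 21.8 CPM. The P4 libraries held 4.22, 2.68, 2.59 and 3.29 CPM and the P10 libraries 0.962, 0.131, 0.267 and 0.214 CPM. No 2 of these 3 ages overlapped. From P16 to P32, the 16 libraries ran from 0 to 0.517 CPM with a median of 0.0786, and the group totals were 4, 15, 11 and 16 reads at P16, P20, P27 and P32. At such totals, differences among the later ages were not detectable. The P4 mean was 16.4% of the E18 mean, the P10 mean 2.02% and the P32 mean 1.09%.

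Igf2bp2 (chr16:22059009-22163299, minus strand), the paralogue with the widest adult expression among the IGF2BP genes, held 10.7, 8.96, 9.29 and 6.79 CPM at E18. It held 4.83, 4.50, 2.59 and 3.06 CPM at P4, below all E18 libraries. The ages P4, P10, P16 and P20 overlapped, with means of 3.75 ± 1.09, 3.21 ± 0.604, 3.55 ± 1.18 and 2.61 ± 0.862 CPM (SD, n = 4 each). At P27 the libraries held 2.22, 0.670, 0.924 and 0 CPM, the 0 being library 6. The P27 mean of 0.952 CPM was 1.27 ± 0.828 CPM without that library (SD, n = 3), and the P32 libraries lay between 0.913 and 1.35 CPM. Igf2bp2 therefore kept 35.9% of its E18 level at P10, where Igf2bp1 was at 2.02%, and 12.9% at P32.

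Igf2bp3 (chr6:49085218-49215525, minus strand), a fetal and tumour-associated paralogue, held 32.6, 24.8, 32.9 and 29.1 CPM at E18. It held 24.3, 14.7, 19.1 and 15.4 CPM at P4, again below all E18 libraries, though P4 library 3 came within 1 CPM of E18 library 4. From P10 on, its means were 16.1, 12.7, 16.8, 14.7 and 17.7 CPM, and the libraries of these ages overlapped. P27 library 6 held 7.86 CPM, and without it the P27 mean was 17.0 rather than 14.7 CPM. Of the 3 Igf2bp genes, this one kept most of its level, 59.2% of E18 at P32, against 12.9% for Igf2bp2 and 1.09% for Igf2bp1.

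Lin28b (chr10:45376617-45487597, minus strand), a blocker of let-7 maturation, held 48.4, 33.1, 48.2 and 51.9 CPM at E18. Its P4 libraries held 50.1, 24.4, 61.6 and 48.9 CPM and its P10 libraries 53.9, 24.2, 41.4 and 39.8 CPM. Library 4 was the lowest of its age at all 3 of these ages, and the ages overlapped. At P16 the libraries held 36.3, 27.2, 16.9 and 16.01 CPM, and the mean of 24.1 ± 9.58 CPM was 53.1% of that at E18. Means at P20, P27 and P32 were 31.1, 24.5 (24.1 without P27 library 6) and 29.6 CPM, with P32 libraries at 38.7, 21.3, 21.3 and 36.9 CPM. Reads assigned to Lin28b were thus still present in each P32 library at 21.3 CPM or more, and P32 libraries 3 and 6 lay above E18 library 4. Whether they came from spliced Lin28b mRNA was not tested.

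Trim71 (chr9:114511268-114564369, minus strand), the mammalian LIN-41, a ubiquitin ligase and mRNA repressor, was at the edge of detection. Its group totals were 49, 18, 13, 7, 18, 7 and 34 reads from E18 to P32. The P32 libraries held 0.255, 0.558, 0 and 0.983 CPM and the E18 libraries 0.286, 0.391, 0.446 and 0.525 CPM, so the groups overlapped. P32 library 6 held 19 of the 34 reads of its age.

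Mex3a (chr3:88532395-88541394, plus strand) held 203, 188, 188 and 238 CPM at E18. It held 118, 124, 101 and 124 CPM at P4, and 21.4, 18.3, 26.1 and 20.97 CPM at P10. The P16 libraries held 5.79, 10.2, 4.20 and 5.43 CPM. These 4 ages did not overlap, and the P16 mean was 3.13% of the E18 mean. Means of 4.79, 4.15 (3.89 without P27 library 6) and 3.27 CPM followed at P20, P27 and P32, with libraries that overlapped from P16 on. The P32 level was 1.60% of E18.

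Mex3b (chr7:82867333-82871576, plus strand) held 131, 170, 126 and 116 CPM at E18. Its P4 libraries held 74.5, 112, 52.1 and 78.4 CPM, all below E18 although P4 library 4 came close to E18 library 6. The P10 libraries, at 31.5, 43.8, 33.5 and 30.0 CPM, lay below all P4 libraries. From P16 to P32 the 16 libraries ran from 14.4 to 34.0 CPM with a median of 25.4. Unlike Mex3a, Mex3b kept a plateau: its P32 mean was 15.95% of E18, against 1.60% for Mex3a.

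Hmga2 and Hmga1 followed different courses. Hmga2 (chr10:120361275-120476935, minus strand), an embryonic chromatin factor known to sustain self-renewal of fetal neural stem cells, was low throughout. It held 1.17, 1.30, 1.16 and 0.845 CPM at E18 and 0.972, 0.766, 0.843 and 0.702 CPM at P4, with overlap. The P10 libraries held 1.28, 0.917, 0.668 and 0.343 CPM, and at P16 the 4 libraries together held 14 reads. At P32 no library held a read, against 134 reads at E18, and 3 reads over the P32 group set a level at least 26.5-fold lower.

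Hmga1 (chr17:27556574-27563672, plus strand) held 11.2, 7.63, 12.4 and 7.61 CPM at P32, against 12.3, 17.8, 9.73 and 8.63 CPM at E18, and the ages overlapped throughout. Age means ran from 9.71 CPM at P32 to 13.3 CPM at P4, a smaller range than that between libraries of 1 age. Mouse has a near-identical copy, Hmga1b, which had no row of its own in the tables, so the split of reads between the 2 is uncertain.

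**Figure D3:**
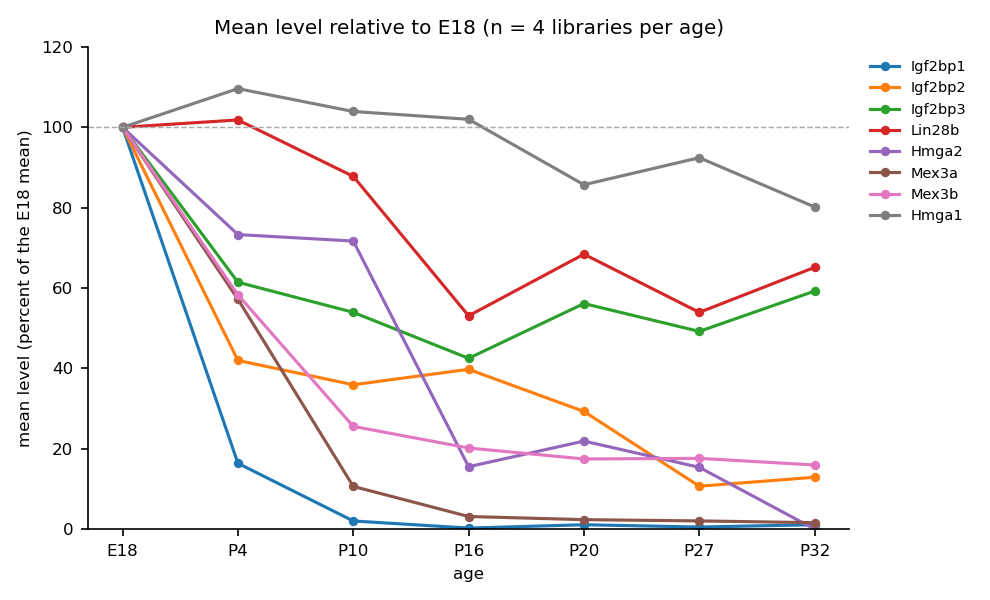
Mean level at each age (x axis) as a percentage of the E18 mean (y axis, from 0), 4 libraries per age, for the 8 genes other than Trim71, whose totals were too small. Igf2bp1 is at 16.4% by P4, Mex3a at 10.6% and Mex3b at 25.6% by P10, and Lin28b and Hmga1 stay above 50%.

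Set against the E18 mean, Igf2bp1 and Igf2bp2 were under 50% by P4, Mex3a and Mex3b by P10, and Igf2bp3 and Hmga2 at P16. Igf2bp3 was back at 56.1% at P20, then at 49.2% at P27 and 59.2% at P32. Without P27 library 6 its P27 mean was 17.0 rather than 14.7 CPM, against 29.9 CPM at E18. Lin28b and Hmga1 did not come under 50% at any age. For Trim71 the first such age was P4, at 18 reads. Of these genes, Igf2bp1, Igf2bp2, Igf2bp3, Hmga2 and Trim71 hold let-7 matches, as does Lin28b, and Mex3a, Mex3b and Hmga1 hold none.

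Between P4 and E18, edgeR's quasi-likelihood fit had no term for library number, and the threshold was an adjusted p of 0.05. Of the 8 genes that passed the filter on low counts, 4 lay below that threshold, all lower at P4. Of all genes tested, 3.12% were called lower and 4.75% higher. Since known levels chose the 9 genes, nothing is read from the difference. The log2 fold changes were -2.61 ± 0.23 (SE) for Igf2bp1, -1.27 ± 0.26 for Igf2bp2, -0.72 ± 0.19 for Igf2bp3 and -0.82 ± 0.15 for Mex3a. Mex3b, at -0.79 ± 0.23, missed the threshold and passed it with library number as a block, as it did with total-count scaling, no filter, the DESeq2 test or without P4 library 4. The call of Igf2bp3 was lost with DESeq2 size factors, total-count scaling, no filter, 1 fit of all 28 libraries, or without any 1 of E18 libraries 3, 5 and 6 and P4 libraries 4, 5 and 6. That of Igf2bp2 was lost in the fit of all 28 libraries and without P4 library 6, where the count was 2. Lin28b (0.01 ± 0.25), Hmga2 (-0.45 ± 0.31) and Hmga1 (0.12 ± 0.30) were not called.

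Between P10 and P4, 3 of 8 genes were called lower, while 8.16% of all genes tested were called lower and 10.3% higher. The log2 fold changes were -2.92 ± 0.50 for Igf2bp1, -2.43 ± 0.15 for Mex3a and -1.20 ± 0.22 for Mex3b. Without P10 library 3, which held 18 of the 28 Igf2bp1 reads of its age, the value for Igf2bp1 was -3.87. The remaining 5 lay between -0.25 and -0.07. Between P16 and P10, Mex3a was called lower at -1.77 ± 0.28, 1 of 6 genes that passed the filter, where 5.65% of all genes were called lower and 6.2% higher. Lin28b stood at -0.74 ± 0.30 and was called only with library number as a block (-0.78) or without P16 library 3 (-1.01).

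In the last 3 steps, P20 against P16, P27 against P20 and P32 against P27, none of the 6 genes that passed the filter was called, and 0% of all genes were by edgeR. At an unadjusted p under 0.05 there were again 0 of the 6, with 485, 476 and 73 genes over the whole table, and DESeq2 called 0, 6 and 0 genes and none of the 9. The widest of these differences, Igf2bp2 at -1.43 ± 0.89 between P27 and P20, was -0.99 without P27 library 6 and -2.28 without P27 library 3.

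**Figure D4:**
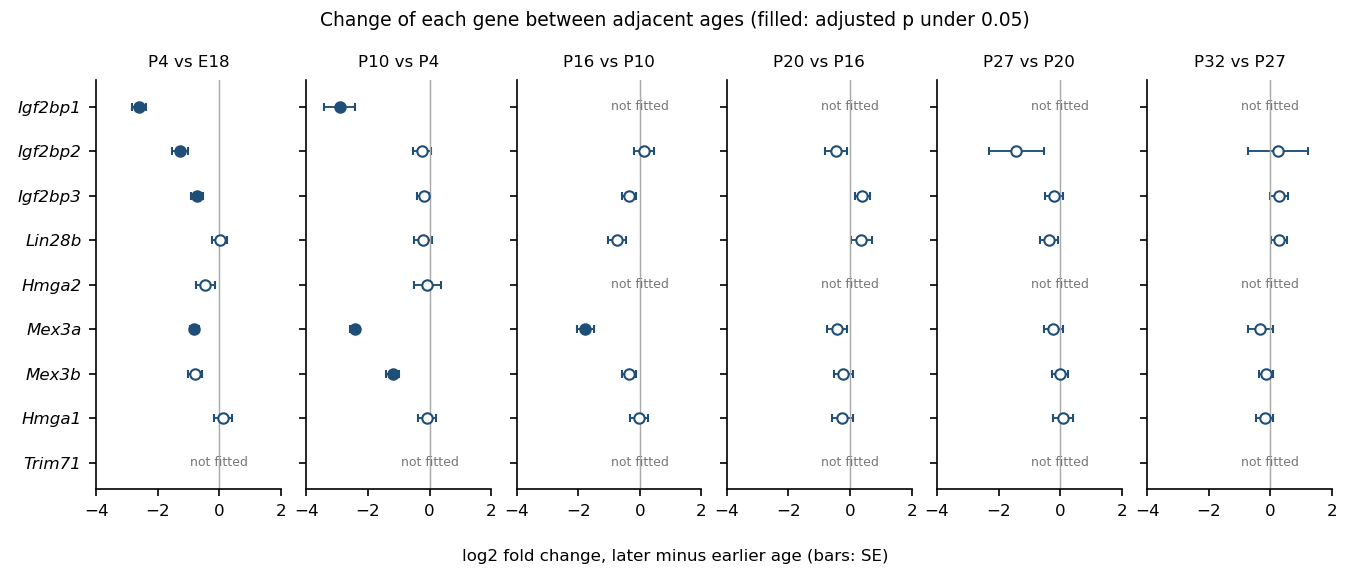
Log2 fold change (x axis, later minus earlier age, bars SE) of each gene between adjacent ages, from edgeR fits of 8 libraries each. Filled points had an adjusted p under 0.05 and "not fitted" marks genes under the filter; all filled points lie in the first 3 steps and at or below -0.72.

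Over the whole span, P32 against E18, 6 of the 9 genes were called lower and none higher, where 22.5% of all genes were called lower and 25.3% higher. These were Hmga2, given above as a bound, Igf2bp1 (-6.43 ± 0.76 on the log2 scale), Mex3a (-5.96 ± 0.29), Igf2bp2 (-2.94 ± 0.54), Mex3b (-2.65 ± 0.27) and Igf2bp3 (-0.75 ± 0.24). Lin28b, at -0.62 ± 0.32, was called only with total-count scaling or the block on library number. The value of Igf2bp1 was -7.35 without P32 library 6. Hmga1 (-0.32 ± 0.33) and Trim71 (0.15 ± 0.76) were not called, and that of Trim71 was -0.56 without P32 library 6. Markers of other cells moved over the same ages. The summed level of 8 immature neuron markers was 10042 to 13307 CPM at E18, 7836 to 10136 at P4, 3264 to 3786 at P10 and 869 to 1121 at P32. That of 14 cycling-cell markers was 205 to 225 CPM at E18, 264 to 279 at P4, 171 to 195 at P10 and 43.1 to 56.1 at P32. That of 10 radial glia markers was 606 to 1151 CPM at E18, 959 to 1425 at P4, 634 to 721 at P10 and 278 to 331 at P32. Of these 10 taken singly, 7 were called lower at P32 against E18 and 2, Prom1 and Notch1, were called higher. The summed level of 7 myelinating oligodendrocyte markers was 49.4 to 81.7 CPM at E18, when Opalin was at 0. It was 1814 to 2290 at P10 and 20115 to 31071 at P32. Their part in the levels of the 9 genes was not tested.

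The genes with the most similar courses were sought by Pearson's r over the 28 libraries on log2(CPM + 0.5), a description across libraries that share age, depth and composition. Predicted-gene symbols were passed over, so a closer gene with such a name would not appear. Closest to Mex3a were Dpf1 (r = 0.990), Ephb2 (0.986) and H2afy2 (0.984). Closest to Igf2bp1 were Zbtb12 (0.971), Gpc2 (0.969) and Cd24a (0.957), and closest to Mex3b were Dbn1 (0.977), Tuba1a (0.964) and Prmt1 (0.963). Dbn1 encodes drebrin, an actin-binding protein of dendritic spines, Tuba1a a tubulin of growing neurons and Ephb2 a receptor of axon guidance. The highest r was lower for Lin28b (N4bp2, 0.902), Igf2bp3 (Intu, 0.918), Igf2bp2 (Myb, 0.906), Hmga2 (E2f7, 0.897) and Hmga1 (Tmem9, 0.868). Among the members, Mex3a and Mex3b had an r of 0.923 and Igf2bp1 and Mex3a one of 0.894, while Hmga1 and Lin28b had one of -0.418.

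Other genes of these families and pathways were counted for P32 against E18. There 25.3% of all genes tested were called higher, 22.5% were called lower and the median log2 fold change was 0.03. The lists were chosen with earlier results of these data known, so their counts are a description. Of 7 relatives of the 9 genes, 2 rose and 2 fell, with a median of -0.13, which is near the shares over all genes. Mex3d, another MEX3 gene, averaged 15.6 CPM at P32 and 113 CPM at E18 and fell (log2 fold change -2.86 ± 0.23, edgeR adjusted p = 6.3e-11). Mex3c, at -0.13 ± 0.21, did not pass the test (adjusted p = 0.64). Lin28a, the paralogue of Lin28b, fell (log2 fold change -2.30 ± 0.87, adjusted p = 0.031). Its libraries held 0.0426, 0, 0.304 and 1.09 CPM at P32, against 1.69, 1.43, 1.65 and 2.39 CPM at E18. The call was lost without E18 library 6 or any 1 of P32 libraries 3, 4 and 5 (adjusted p of 0.060 to 0.089), and the value was -4.07 without P32 library 6. Lin28a also rose at P10 against P4 (1.54 ± 0.45, adjusted p = 0.034), with 1.44, 4.72, 3.41 and 5.66 CPM in the P10 libraries against 0.881, 2.11, 0.783 and 1.53 CPM in the P4 libraries. Trim3 (0.72 ± 0.23, adjusted p = 0.011), a neuronal ubiquitin ligase of the same domain type as Trim71, rose, as did Trim56 (1.09 ± 0.41, adjusted p = 0.029). Both rises were lost with total-count scaling and without E18 library 6. Trim3 also lost its call without P32 library 4, and Trim56 lost its call with DESeq2 size factors and without E18 library 3, 4 or 5 or P32 library 6.

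Of 16 genes that process let-7 or act with it, 2 rose and 7 fell at P32 against E18, with a median of -0.26. Over all genes tested, 25.3% rose and 22.5% fell. Ago3, an Argonaute, averaged 217 CPM at P32 and 56.5 CPM at E18 and rose (1.94 ± 0.27, adjusted p = 1.3e-06). Ago2, the slicing Argonaute, rose by 0.59 ± 0.15 (adjusted p = 0.0024), a call that total-count scaling ended. Prkra, a partner of Dicer, fell (-1.92 ± 0.25, adjusted p = 3.5e-07), and so did Hnrnpa1 (-1.30 ± 0.25, adjusted p = 7.9e-05), which binds the let-7a precursor in human cells. Of the enzymes that act with LIN28 on the let-7 precursor, the nuclease gene Dis3l2 fell (-0.66 ± 0.18, adjusted p = 0.0028). The uridylyl transferase genes Tut4 (-0.25 ± 0.26, adjusted p = 0.46) and Tut7 (-0.10 ± 0.13, adjusted p = 0.52) did not pass the test, although Tut7 was called lower with total-count scaling (-0.43). Of the 20 symbols for let-7 and miR-125 genes and their hosts, 4 had a row. Huwe1, which hosts let-7f-2 and miR-98, rose (0.48 ± 0.18, adjusted p = 0.030), a call lost with DESeq2 size factors, total-count scaling, the DESeq2 test, a fit of the 8 libraries alone, or without any 1 of E18 libraries 4, 5 and 6, P4 libraries 3, 5 and 6, P10 libraries 5 and 6, P27 library 5 and P32 libraries 3 and 6. Wdr82, which hosts let-7g, fell (-0.59 ± 0.20, adjusted p = 0.018), a call lost without P32 library 3. A host's level does not give that of the microRNA.

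Of 21 further genes known as let-7 targets, 2 rose and 9 fell at P32 against E18, with a median of -0.48. The shares over all genes tested were 25.3% risen and 22.5% fallen. Myc, a growth-promoting transcription factor, fell (-3.36 ± 0.41, adjusted p = 1.0e-07), and so did Ccnd2, which encodes cyclin D2 (-3.22 ± 0.23, adjusted p = 5.7e-12). Nr6a1, a nuclear receptor of early embryos, rose (0.65 ± 0.21, adjusted p = 0.013), as did Irs2, an adaptor of the insulin receptor (0.58 ± 0.20, adjusted p = 0.017). Total-count scaling ended both rises, and each was lost without E18 library 4, Nr6a1 also without E18 library 5 or in a fit of the 8 libraries alone, and Irs2 without E18 library 6 or P32 library 4. The 8-base let-7 match stood in the 3′ UTR of 9 of the 21 genes, of which 4 fell. Among the 12 without it, 5 fell. Nr6a1 holds 3 matches, as many as Igf2bp1.

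Over all genes other than the 9, 499 tested genes had a single let-7 match, and 116 of them fell and 165 rose at P32 against E18, with a median of 0.02. The 14338 genes with none had a median of -0.01, 3665 falls and 3831 rises. Of 22 genes with 2 matches, 6 fell and 6 rose, with a median of 0.10. Of 5 with 3 or more, 2 fell and 1 rose, with a median of -0.67. Genes with a match had longer 3′ UTRs. The median was 2420 bases with 1 match, 3592 with 2 and 2728 with 3 or more, against 1115 bases for those without. Only 7 genes held 3 or more matches, among them Igf2bp1, Trim71 and Nr6a1, and 5 of the 7 were not among the 9 genes.

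IGF2BP proteins act with partner proteins on known mRNAs, and 14 such partner and target genes were counted. At P32 against E18, 1 rose and 9 fell, with a median of -0.84, while 25.3% of all genes tested rose and 22.5% fell. H19, an imprinted non-coding RNA known to bind IGF2BP1, averaged 0.342 ± 0.344 CPM at P32 and 55.9 ± 19.1 CPM at E18 (SD, n = 4 each). Its log2 fold change was -7.24 ± 0.61 (adjusted p = 1.2e-10), and -8.07 without P32 library 6. Gap43, a growth-cone protein that also counts among the immature neuron markers, fell (-3.47 ± 0.37, adjusted p = 8.7e-09), and Myc is shared with the let-7 targets. Cd44, a hyaluronan receptor, rose (1.37 ± 0.34, adjusted p = 0.0015). In the steps between adjacent ages, 4 of the 14 fell at P10 against P4 (8.16% of all genes) and 6 at P16 against P10 (5.65%), while 1 rose at P4 against E18 (4.75%).

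Of 15 other RNA-binding protein genes of neural tissue, 3 rose and 6 fell at P32 against E18, with a median of -0.24. Beside them, 25.3% of all genes tested rose and 22.5% fell. Qk, a glial splicing and mRNA-stability factor needed for myelin, averaged 1341 CPM at P32 and 156 CPM at E18 and rose (3.10 ± 0.31, adjusted p = 2.3e-09). Msi2 rose (1.499 ± 0.23, adjusted p = 4.4e-06) while its paralogue Msi1, a marker of neural stem cells, fell (-1.22 ± 0.17, adjusted p = 1.4e-06). Fxr2, a relative of the fragile X gene, rose (0.74 ± 0.16, adjusted p = 3.3e-04). Cirbp (-1.02 ± 0.24, adjusted p = 8.0e-04), a cold-inducible RNA-binding protein, and Elavl3 (-0.78 ± 0.16, adjusted p = 1.8e-04), a neuronal Hu protein, fell.

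Of 10 genes for other high-mobility-group proteins, PLAG factors and cell-cycle inhibitors, 1 rose and 5 fell at P32 against E18, with a median of -1.03. Among all genes tested, 25.3% rose and 22.5% fell. Hmgb3 (-3.23 ± 0.49, adjusted p = 3.7e-06), Hmgb2 (-1.76 ± 0.50, adjusted p = 0.0046) and Hmgn1 (-1.56 ± 0.20, adjusted p = 2.4e-07), all chromatin proteins, fell. Hmgb2 rested on few reads, averaging 1.35 CPM at E18 and 0.387 CPM at P32, where libraries held 0.186 to 0.673 CPM. Plag1, a zinc-finger activator of Igf2, rose (1.21 ± 0.37, adjusted p = 0.0081), a call lost with total-count scaling.

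Scaling weighed on these splits. With total-count scaling the median of all genes moved to -0.29, and 3550 genes rose and 6471 fell, against 5080 and 4530 with TMM. Under it, none of the relatives rose and 3 fell, 1 let-7 processing gene rose and 10 fell, none of the let-7 targets rose and 13 fell, and none of the high-mobility-group list rose and 7 fell. For the let-7 hosts it left 1 fall and no rise. With DESeq2 size factors 1 relative rose and 3 fell, and among the hosts none rose and 1 fell.

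**Figure D5:**
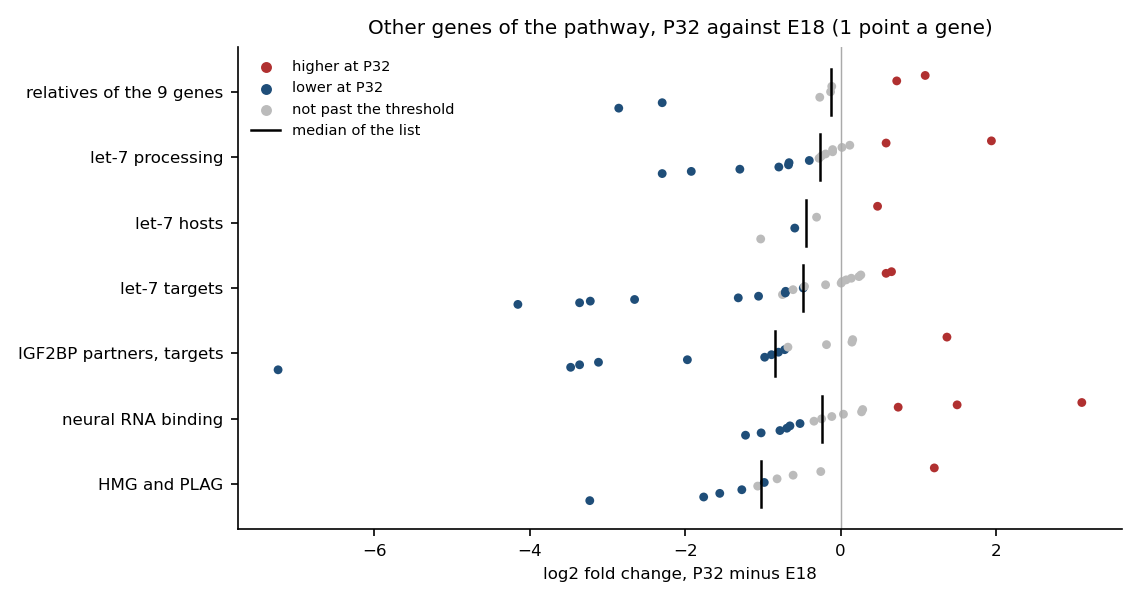
Log2 fold change at P32 minus E18 (x axis) of the genes of 7 lists, 1 point a gene, from 1 edgeR fit of 28 libraries. Colours mark genes higher or lower at an adjusted p under 0.05 and black lines list medians, which run from -1.03 (HMG and PLAG) to -0.13 (relatives); H19, at -7.24, is farthest left and Qk, at 3.10, farthest right.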

How the data were processed

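RNA was sequenced from dissected dLGN at 7 ages, with 4 libraries per age. The authors deposited 12 tables, 2 for each of 6 comparisons of adjacent ages, and these were merged by gene ID. The deposited read counts, whole numbers with 1 column per library, were taken unaltered. A gene absent from a comparison was not fitted there, and its count was set to 0 in the fit of all 28 libraries. The authors' fold change, a ratio of later to earlier age, and their deposited adjusted p-value served only as an alternative source of calls. The gene length in the deposited tables gave levels per kilobase. Per the submitters' processing notes, BWA and edgeR 3.14.0 were used with GRCm38 (mm10). For counting, the tool, the annotation and any use of strand were not given in the sources used here. Overlapping genes may therefore share reads. A further 96 columns of read density were not used. Columns carry numbers 3 to 6, which could not be matched to the labels' replicate numbers.

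Each pair of adjacent ages was fitted on its 8 libraries with filterByExpr, TMM factors and the quasi-likelihood test of edgeR 4.0.16, run in R 4.3.3 (glmQLFit, glmQLFTest, two-sided, Benjamini-Hochberg, adjusted p under 0.05). P32 against E18 came from 1 fit of all 28 libraries. Printed levels are CPM scaled with TMM factors over the 28 libraries. p-values measure the spread between libraries, which may be technical, and no term for sex was fitted. Same-numbered columns deviated together in P4 against E18 (r of 0.425 to 0.749) and P10 against P4 (0.208 to 0.581). The numbers were therefore taken to pair the libraries there. The main calls and SEs nonetheless came from fits with no term for the number, and the block on it was an alternative. In the later steps numbers 3 to 5 had r of 0.267 to 0.611 but number 6 had -0.211 to 0.0371. Pairing was taken only where every number exceeded 0.1. A floor of 3 reads covers counting error only.

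The 9 genes and all lists were chosen with earlier results of these data known. Lists overlap: Lin28a counts among the relatives and let-7 processing, and Dicer1 among let-7 processing and the let-7 targets. From each list the text names the called genes with the largest log2 fold changes, at most 3 in either direction, among those averaging 1 CPM or more, plus Lin28a, Tut4, Tut7 and Dis3l2. Mex3c was added after its values were seen. One gene that this rule names is not reported here. By similarity, up to 3 genes per member are named, among genes reaching 5 CPM at some age. The alternatives were DESeq2 size factors and total counts for scaling, the DESeq2 1.42.0 Wald test, no filter, each library left out, a block on the number, and other sets of libraries. MicroRNA sequences are RefSeq's (GRCm38.p6) and 3′ UTRs are GENCODE's, taken after the annotated stop codon of the protein-coding transcript with the longest one.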

Additional observations from a re-analysis of the deposited data

Results flagged for a closer look

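Igf2bp1 in P10 library 3 stood at 0.962 CPM, from 18 reads, while the other 3 libraries of its age lay between 0.131 and 0.267 CPM. Without it the log2 fold change at P10 against P4 was -3.87, against -2.92 with it. In P27 library 3 it stood at 0.344 CPM, from 9 reads, while the others lay between 0 and 0.0528 CPM, library 6 among those at 0. Both stood out by the gap to the nearest library of the same age relative to the range. The 9 genes at 7 ages gave 63 such groups, of which 2 were flagged. Chance alone flags about 1 group in 20 where values are normally distributed. For groups of few reads that rate need not hold.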

How the results depend on the processing

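The counts of called members kept within 1.5 times their value under the alternatives other than these. P4 against E18 gave 2 in place of 4 in 1 fit of all 28 libraries, and P16 against P10 gave 2 in place of 1 with the replicate block on library number and by the authors' deposited adjusted p. The let-7 hosts gave 1 call in place of 2 with DESeq2 size factors, total-count scaling, the DESeq2 Wald test and the fit of the 8 libraries of P32 and E18 alone. The replicate block gave 5 calls in place of 4 for P4 against E18 and 7 in place of 6 for P32 against E18, and 14 in place of 11 for the let-7 targets. Beyond P10 the numbers were not taken as pairs, since number 6 did not deviate together (r of -0.211 to 0.0371), although numbers 3 to 5 did (0.267 to 0.611). The causes were not tested.

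With each library left out in turn, member calls ran from 2 to 4 for P4 against E18 (2 without P4 library 6), from 3 to 3 for P10 against P4, from 1 to 2 for P16 against P10 (2 without P16 library 3), and from 6 to 6 for P32 against E18. The 3 later steps stayed at 0 to 0. List calls ran from 1 to 4 for the relatives (1 without E18 library 6 and 2 without P32 library 4), 6 to 9 for let-7 processing, 0 to 3 for the hosts (0 without P32 library 3, and 1 without E18 libraries 4, 5 or 6, P4 libraries 3, 5 or 6, P10 libraries 5 or 6, or P27 library 5), 9 to 12 for let-7 targets, 10 to 11 for IGF2BP partners and targets, 8 to 10 for neural RNA binding and 6 to 7 for the high-mobility-group list. No called result changed sign. The log2 fold change of Trim71 at P32 against E18, which was not called, ran from -0.557 to 0.531 over 34 alternatives and was below 0 in 4. Depth limits Trim71, Hmga2 and late Igf2bp1, with 34 reads or fewer per age from P16 on.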
